A study of Mus musculus with 8 samples.

Results

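The RUNX transcription factors and their partner core binding factor beta were followed in mouse bone marrow-derived progenitors after loss of the histone chaperone CAF-1 and after loss of HOXA9. The members were taken by name: Runx1, Runx2 and Runx3, the DNA-binding subunits; Cbfb, the common partner subunit; and Runx1t1, the corepressor also called ETO. These are 5 of 34199 annotated genes, and 4 of the 5 were among the 13080 genes that passed the filter on low counts. Runx1t1 did not pass.

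RNA was sequenced in bulk from immortalised granulocyte-macrophage progenitors of the strain C57Bl/6, the Lys-GFP-ER-HoxA9 cells. All groups carry HOXA9 fused to the hormone-binding domain of the estrogen receptor, which is active while estradiol is in the medium and halts differentiation, together with GFP under the lysozyme promoter, and all were grown with stem cell factor. The 8 libraries fell into 4 groups of 2. The t0 libraries came from uninduced cells (0 h, estradiol at 150 ng/ml). In CAF-1 OFF, an shRNA against Chaf1b, a subunit of CAF-1, was induced by 500 µM IPTG over 48 h while estradiol stayed at 150 ng/ml. IPTG treated control cells had IPTG for 48 h; the labels give neither its dose nor the shRNA these cells carry. For Hoxa9 OFF, estradiol was left out for 48 h, which makes the fusion protein inactive; the shRNA of these cells is not in the labels either. The study describes its inducible cells as clonal lines, so a group need not stand for other clones. The study mentions independent sub-clones behind its RNA-seq tracks, but the labels do not say whether replicates were separate sub-clones or cultures, so p-values measure the spread between these libraries, which may be technical.

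A RUNX protein binds DNA through its Runt domain and gains affinity and stability when it pairs with CBFβ, which does not contact DNA itself. RUNX1 is required for the emergence of blood stem cells and acts in myeloid, megakaryocytic and lymphoid differentiation. RUNX2 is the master regulator of osteoblasts and is also expressed in blood progenitors, and RUNX3 acts in T cells, natural killer cells and sensory neurons. RUNX1T1 is best known from the fusion with RUNX1 in acute myeloid leukaemia, where it brings in corepressors.

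Each mammalian RUNX gene has a distal and a proximal promoter, and the distal promoters are known for conserved RUNX sites near the start of transcription. The promoter windows of RefSeq on GRCm38.p6, 250 bases before to 50 bases after a start, were searched on both strands for the RUNX core letters TGTGGT and TGCGGT. These letters were chosen after the sequences had been seen. The 30 bases around a tandem pair of cores are shown because 3 members shared them. They are written 5′ to 3′ on the gene's own strand, and capitals mark ACCACA, the reverse complement of TGTGGT.
Runx3 distal promoter, chr4:135120503-135120532, plus strand: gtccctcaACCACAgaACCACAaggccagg
Runx1 distal promoter, chr16:92826025-92826054, minus strand: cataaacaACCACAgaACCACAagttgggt
Runx2 listed promoter, chr17:44814583-44814612, minus strand: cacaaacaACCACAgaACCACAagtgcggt

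The tandem cores began 8 bases apart in each of the 3 genes. The window spanned positions -142 to -113 from the start of Runx3, 21 to 50 of Runx1 and 16 to 45 of Runx2. The 18 bases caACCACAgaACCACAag stood in 4 of the 32851 promoters in the table, those of Runx1, Runx2, Runx3 and Gm16225, a gene on the other strand whose window overlaps that of Runx3. Tandem TGTGGT cores on one strand, with starts from 7 to 11 bases apart, occurred in 19 promoters, or 0.0578% of all. A single core was common, with 22.4% of promoters holding at least 1 and 2.86% at least 2. The Runx2 window held 4 cores, and 0.289% of promoters held at least 3. The proximal promoters of Runx1 and Runx3 and the promoter of Cbfb held none of these letters. A match of letters is not evidence of binding, and gene counts do not separate transcripts of the distal and the proximal promoter.

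**Figure D1:**
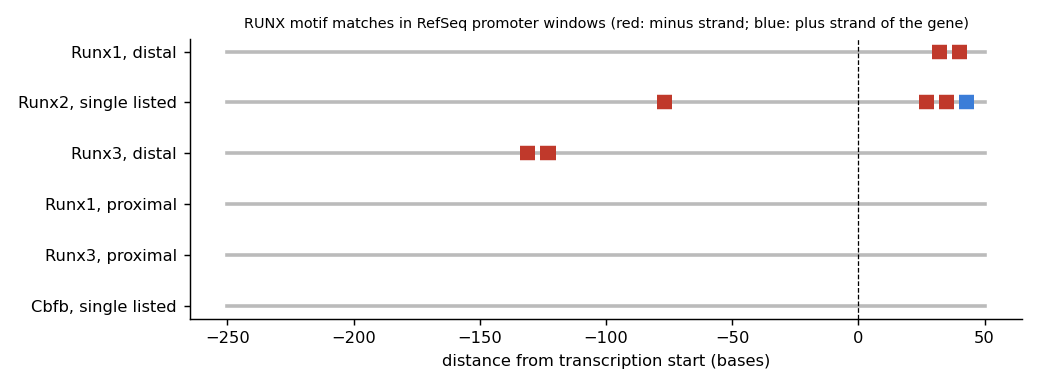
Positions of TGTGGT and TGCGGT in the 300-base RefSeq promoter windows of the members, with the distance from the transcription start in bases on the horizontal axis and 1 line a promoter. Red squares are cores on the minus and blue on the plus strand of the gene, and the distal windows of Runx1 and Runx3 and the listed window of Runx2 hold a tandem pair 8 bases apart, while the other 3 windows hold no core.

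Between 14044284 and 22423837 reads were assigned to genes per library. The shRNA target Chaf1b was at 18.7 and 9.72 CPM (read counts relative to the TMM-scaled library size) in the CAF-1 OFF libraries, at 96.8 and 100.3 CPM in t0, and at 95.1 and 101.7 CPM in the IPTG treated control. It fell by 2.79 on the log2 scale in CAF-1 OFF against t0 (FDR = 0.00236). Hoxa9 reads were not lost in Hoxa9 OFF, where estradiol withdrawal acts on the fusion protein: their level was 481.2 and 449.7 CPM, and 234.4 and 234.8 CPM in t0. The share of reads outside genes was highest in replicate 1 of the IPTG treated control, at 14.6%, and was 5.30% to 7.79% elsewhere. All 7 progenitor markers were above the floor of 3 counts in every group, with a summed level from 10666 to 14546 CPM in t0, so the label of the cells matched its markers. In CAF-1 OFF the 8 neutrophil markers summed to 1156 and 2040 CPM, against 49.6 and 67.4 CPM in t0. Most of that sum was Mmp8, at 1091 and 1937 CPM in CAF-1 OFF, while S100a8 was at 28.0 to 44.5 CPM there and 1.84 to 3.07 CPM in t0, Cxcr2 at 13.6 to 21.1 and 1.07 to 1.38 CPM, and Ltf at 0.474 to 0.523 and 0.312 to 0.428 CPM. In Hoxa9 OFF the same markers summed to between 5476 and 8045 CPM and the 7 macrophage markers to between 1008 and 1653 CPM, against 27.7 to 53.8 CPM in t0. The 6 mast cell and basophil markers summed to 221.7 to 276.1 CPM in t0 and to 764.7 to 1157 CPM in CAF-1 OFF. Most of that rise was Cpa3, at 423.1 to 764.5 CPM in CAF-1 OFF and 114.8 to 154.5 CPM in t0. Mcpt8 was at 227.8 to 267.1 and 29.5 to 34.4 CPM, and Gata2 at 111.6 to 115.5 and 76.3 to 83.1 CPM. Prss34 (2.20 to 9.21 CPM in CAF-1 OFF) and Tpsb2 (0 to 0.579 CPM) overlapped t0, and Fcer1a stayed below the floor. The progenitor markers summed to 5566 to 7561 CPM in Hoxa9 OFF and to 15795 to 15825 CPM in CAF-1 OFF. In Hoxa9 OFF their members differed, with Flt3 at 2.43 to 9.28 CPM against 245.0 to 349.6 CPM in t0 and Prtn3 at 1410 to 1821 CPM against 943.6 to 1451 CPM. These marker levels moved together with the RUNX levels described here, and their part in the results was not tested. In bulk libraries, fewer cells of a type and less RNA per cell cannot be told apart.

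Cbfb was the most abundant member in every library once levels were divided by the length of the gene model. In t0 its mean level was 59.9 ± 0.034 CPM per kb (SD, n = 2), followed by Runx3 at 13.1 ± 1.27, Runx2 at 10.1 ± 1.87 and Runx1 at 4.83 ± 0.352 CPM per kb. The values of these 4 genes did not overlap between the t0 libraries, with Runx3 at 12.2 and 14.0 and Runx2 at 8.75 and 11.4 CPM per kb. The order was the same in the IPTG treated control. In CAF-1 OFF the order of the means was again Cbfb, Runx3, Runx2 and Runx1, but Runx2 at 11.1 and 8.60 CPM per kb was not separated from Runx1 at 8.22 and 8.70 CPM per kb. In Hoxa9 OFF Runx1 was the highest of the RUNX genes, and Runx3 stayed above Runx2, with Runx1 at 15.6 and 16.0, Runx3 at 10.2 and 7.86 and Runx2 at 5.12 and 3.61 CPM per kb.

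Runx1t1 was at or below the floor throughout. It had 1 count in t0 replicate 1 and 0 counts in the other 7 libraries, where 3 counts, the number a count of 0 allows, corresponded to between 0.128 and 0.212 CPM. This limit covers counting error only. Of its paralogs in the ETO family, Cbfa2t3, also called ETO2, was well expressed and is described with the corepressors below.

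Runx1, whose product is required for definitive haematopoiesis, rose in both CAF-1 OFF and Hoxa9 OFF. Its level was 35.7 and 39.6 CPM in the t0 libraries, 40.3 and 37.4 CPM in the IPTG treated control, 64.1 and 67.9 CPM in CAF-1 OFF and 121.5 and 124.7 CPM in Hoxa9 OFF. The t0 and IPTG treated control libraries overlapped, and the other groups stood clear of these and of each other. In CAF-1 OFF the level was 1.75-fold that of t0, a log2 fold change of 0.81 with a standard error of 0.11 and a 95% interval from 0.57 to 1.05 (edgeR quasi-likelihood test, Benjamini-Hochberg FDR = 0.00543). In Hoxa9 OFF it was 3.27-fold that of t0, a log2 fold change of 1.71 with a standard error of 0.11 and an interval from 1.46 to 1.96 (FDR = 1.95e-05). Runx1 was also lower in CAF-1 OFF than in Hoxa9 OFF, by 1.87-fold, a log2 difference of -0.90 with an interval from -1.14 to -0.66 (FDR = 0.000325). The call in CAF-1 OFF was lost without t0 replicate 1, where the log2 fold change was 0.73, and without CAF-1 OFF replicate 2, where it was 0.77. Both values stayed above the threshold of 1.5-fold. Calls over all tested genes also fell in these fits, as given in the closing section. The call in Hoxa9 OFF held under all 15 alternatives.

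**Figure D2:**
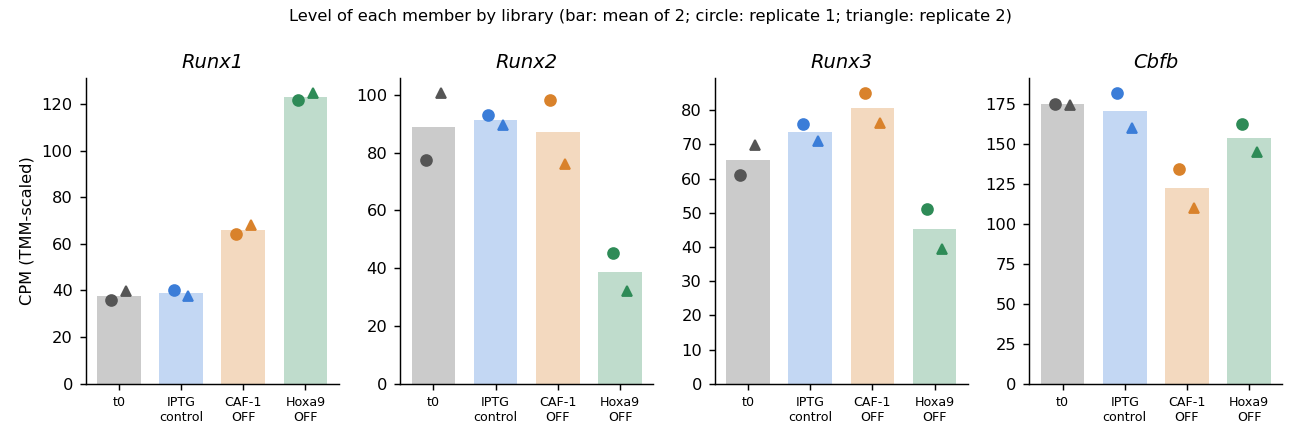
Level of Runx1, Runx2, Runx3 and Cbfb in CPM (vertical axes, starting at 0) in each of the 4 groups; circles are replicate 1, triangles replicate 2 and bars the mean of both. Runx1 stands at 121.5 and 124.7 CPM in Hoxa9 OFF against 35.7 and 39.6 CPM in t0, while Runx2 and Runx3 are lowest in Hoxa9 OFF and Cbfb is lowest in CAF-1 OFF.

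Runx2, the osteoblast regulator, fell in Hoxa9 OFF and was not called in CAF-1 OFF. It was at 77.3 and 100.6 CPM in t0, at 93.1 and 89.4 CPM in the IPTG treated control, at 98.2 and 76.0 CPM in CAF-1 OFF, and at 45.2 and 31.9 CPM in Hoxa9 OFF. The first 3 groups overlapped, and both Hoxa9 OFF libraries lay below all others. Runx2 in Hoxa9 OFF was 2.31-fold below t0, with a log2 fold change of -1.21, a standard error of 0.21 and an interval from -1.69 to -0.72 (FDR = 0.00176). The log2 fold change in CAF-1 OFF was -0.03 with an interval from -0.51 to 0.45 (FDR = 0.932), which allows a level up to 1.36-fold higher. Its sign turned with single libraries and with the scaling. Runx2 was higher in CAF-1 OFF than in Hoxa9 OFF, with a log2 difference of 1.18 and an interval from 0.69 to 1.66 (FDR = 0.00242).

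Runx3, which acts mainly in lymphoid cells, had levels of 60.9 and 69.9 CPM in t0, 76.0 and 71.1 CPM in the IPTG treated control, 85.0 and 76.1 CPM in CAF-1 OFF and 51.0 and 39.3 CPM in Hoxa9 OFF. The Hoxa9 OFF libraries were the lowest, and the CAF-1 OFF libraries lay just above those of the IPTG treated control, 76.1 against 76.0 CPM at the nearest. Against t0, the log2 fold change was -0.54 in Hoxa9 OFF with a standard error of 0.15 and an interval from -0.88 to -0.19 (FDR = 0.0161), a change of 1.45-fold that missed the fold threshold of 1.5. It was called in Hoxa9 OFF under library-size scaling (-0.73, FDR = 0.00397), without t0 replicate 1 (-0.64, FDR = 0.0296) and without Hoxa9 OFF replicate 1 (-0.73, FDR = 0.004). Its FDR was over 0.05 without t0 replicate 2 (-0.44, FDR = 0.0959) and without Hoxa9 OFF replicate 2 (-0.36, FDR = 0.0684). In CAF-1 OFF the log2 fold change was 0.30 with an interval from -0.04 to 0.64 (FDR = 0.183). The difference between CAF-1 OFF and Hoxa9 OFF was called, with a log2 difference of 0.84 and an interval from 0.49 to 1.18 (FDR = 0.00247).

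Cbfb, the partner needed by all 3 RUNX proteins, had 174.5 and 174.3 CPM in t0 and 181.6 and 159.4 CPM in the IPTG treated control. It had 134.4 and 109.5 CPM in CAF-1 OFF and 162.2 and 144.6 CPM in Hoxa9 OFF. Both CAF-1 OFF libraries were below the 6 others with TMM scaling, while by library size alone CAF-1 OFF replicate 1 lay above Hoxa9 OFF replicate 2. Against t0 the log2 fold change in CAF-1 OFF was -0.52 with a standard error of 0.13 and an interval from -0.81 to -0.22 (FDR = 0.0292), which is 1.43-fold lower and therefore short of the fold threshold. Without CAF-1 OFF replicate 1 it was -0.70 (FDR = 0.0368) and passed both thresholds. Its FDR was over 0.05 without t0 replicate 1 (-0.52, FDR = 0.126), without t0 replicate 2 (-0.52, FDR = 0.0988) and without CAF-1 OFF replicate 2 (-0.38, FDR = 0.195). In Hoxa9 OFF the log2 fold change was -0.19 with an interval from -0.48 to 0.11 (FDR = 0.245). Between CAF-1 OFF and Hoxa9 OFF it differed by -0.33 on the log2 scale with an interval from -0.63 to -0.03 (FDR = 0.0589). With library size only these became -0.38 (FDR = 0.0305) for Hoxa9 OFF against t0 and -0.098 (FDR = 0.524) for CAF-1 OFF against Hoxa9 OFF. The latter had FDR = 0.0233 with the replicate block, and none of the 15 alternatives made either a call.

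Calls required both FDR under 0.05 and a difference of 1.5-fold or more. In CAF-1 OFF against t0, 1 of the 4 tested members was called higher, where 10.5% of all tested genes were higher, and 0 were called lower, where 3.5% of all were. In Hoxa9 OFF against t0, 1 was called higher and 1 lower, where 25.2% and 22.1% of all tested genes were. In CAF-1 OFF against Hoxa9 OFF, Runx2 and Runx3 were higher and Runx1 lower, where 22.2% of all tested genes were higher and 21.4% lower. Under library-size scaling the split of all called genes moved from 3293 higher and 2886 lower to 2715 and 3701 in Hoxa9 OFF against t0, and from 2898 and 2797 to 3949 and 2064 in CAF-1 OFF against Hoxa9 OFF. All called changes of members kept their direction under that scaling. With 4 genes these counts are descriptions, and the first and second comparison share the t0 libraries.

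No member was called between the IPTG treated control (48 h) and t0 (0 h), which differ in time as well as in IPTG. The shRNA of the control is not in the labels, so the comparison does not isolate IPTG. In the IPTG treated control against t0, the log2 fold changes were 0.05 for Runx1, 0.04 for Runx2, 0.17 for Runx3 and -0.03 for Cbfb, with FDR = 1 for each by edgeR. The intervals allow a difference from -0.20 to 0.29 for Runx1, from -0.44 to 0.51 for Runx2, from -0.18 to 0.51 for Runx3 and from -0.33 to 0.26 for Cbfb. The share of all genes called was 0%. Unadjusted p-values were under 0.05 for 0 of the 4 members and for 100 genes, or 0.765% of those tested, and DESeq2 called 5 genes.

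Set against the IPTG treated control in place of t0, CAF-1 OFF gave like values. Runx1 was 1.70-fold higher, a log2 fold change of 0.76 with an interval from 0.52 to 1.01 (FDR = 0.00684), the 1 member called, where 9.56% of all tested genes were higher and 3.2% lower. It was not called without CAF-1 OFF replicate 2 (0.72, FDR = 0.0613) or without IPTG treated control replicate 2 (0.71, FDR = 0.0682). Cbfb was 1.40-fold lower (-0.48 on the log2 scale, interval from -0.78 to -0.19, FDR = 0.039), again under the fold threshold. Its log2 fold change ran from -0.66 to -0.34 over the 15 alternatives, and 14 of them left it without a call. Its FDR did not stay under 0.05 in all of them. Runx2 (-0.07, FDR = 0.843) and Runx3 (0.13, FDR = 0.558) were not called. The CAF-1 OFF libraries are shared with the comparison against t0.

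**Figure D3:**
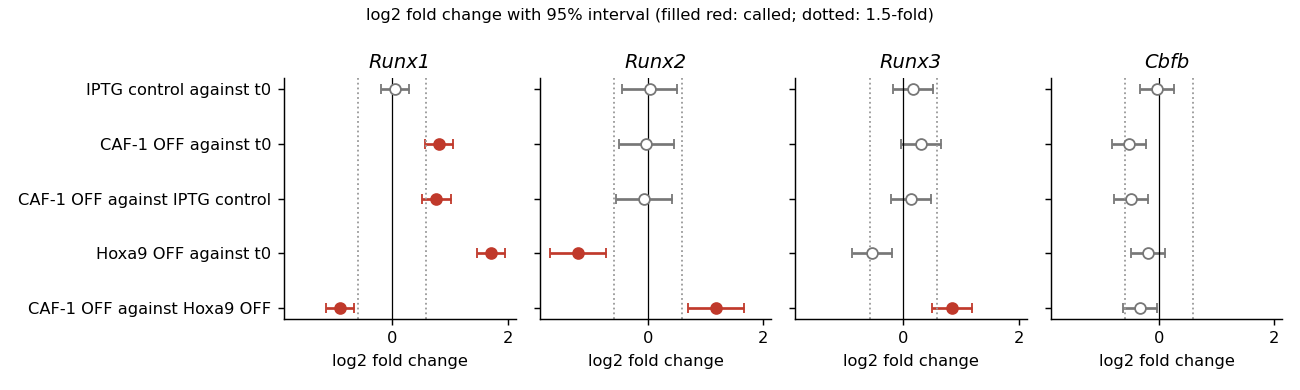
Log2 fold change with its 95% interval (horizontal axes) for the 4 tested members in the 5 comparisons; filled red points are called, dotted lines mark 1.5-fold. Runx1 is right of 0 in CAF-1 OFF (0.81) and Hoxa9 OFF (1.71) against t0, Runx2 is left of 0 in Hoxa9 OFF (-1.21), and the intervals of the IPTG control against t0 include 0 for all 4.

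Within a library, the make-up of the RUNX family moved toward Runx1. Runx1 took 17.9% and 16.7% of the summed RUNX level per kb in the t0 libraries, a mean of 17.3 ± 0.900 (SD, n = 2). The mean share was 16.6 ± 0.177% in the IPTG treated control, 24.7 ± 2.93% in CAF-1 OFF and 54.3 ± 5.49% in Hoxa9 OFF. Runx2 went from 35.9 ± 2.20% in t0 to 28.5 ± 2.94% in CAF-1 OFF and 14.9 ± 2.41% in Hoxa9 OFF. Runx3 held 46.8 ± 1.30% in t0, 46.8 ± 0.0103% in CAF-1 OFF and 30.8 ± 3.08% in Hoxa9 OFF. In these libraries, Runx3 was thus the largest share in t0, the IPTG treated control and CAF-1 OFF, and Runx1 in Hoxa9 OFF. The shares depend on the length of the gene models, which the closing section varies, and they are given as descriptions, with no test.

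The ratio of Runx1 to Runx2 read counts needs no length and no scaling between libraries. It was 0.462 and 0.393 in t0, 0.433 and 0.419 in the IPTG treated control, 0.652 and 0.893 in CAF-1 OFF and 2.69 and 3.90 in Hoxa9 OFF. Both conditions stood clear of the control libraries, and the mean ratio was 1.81 times that of t0 in CAF-1 OFF and 7.71 times in Hoxa9 OFF. For Runx1 to Runx3 the corresponding ratios were 1.43 and 4.82 times t0, and 0.917 times in the IPTG treated control.

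The summed level of Runx1, Runx2 and Runx3 varied less than its make-up. It was 28.0 ± 3.48 CPM per kb in t0, 29.998 ± 1.24 in the IPTG treated control, 34.4 ± 2.70 in CAF-1 OFF and 29.2 ± 2.42 in Hoxa9 OFF. Divided by Cbfb, the RUNX sum was 0.426 and 0.508 in t0, 0.495 and 0.532 in the IPTG treated control, 0.787 and 0.865 in CAF-1 OFF and 0.554 and 0.553 in Hoxa9 OFF. The CAF-1 OFF libraries had the highest ratio of RUNX to its partner. In mean level per kb, Runx1 was 8.46 there and 4.83 in t0, Runx3 16.1 and 13.1, and Cbfb 41.9 and 59.9, of which only the change of Runx1 was called.

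**Figure D4:**
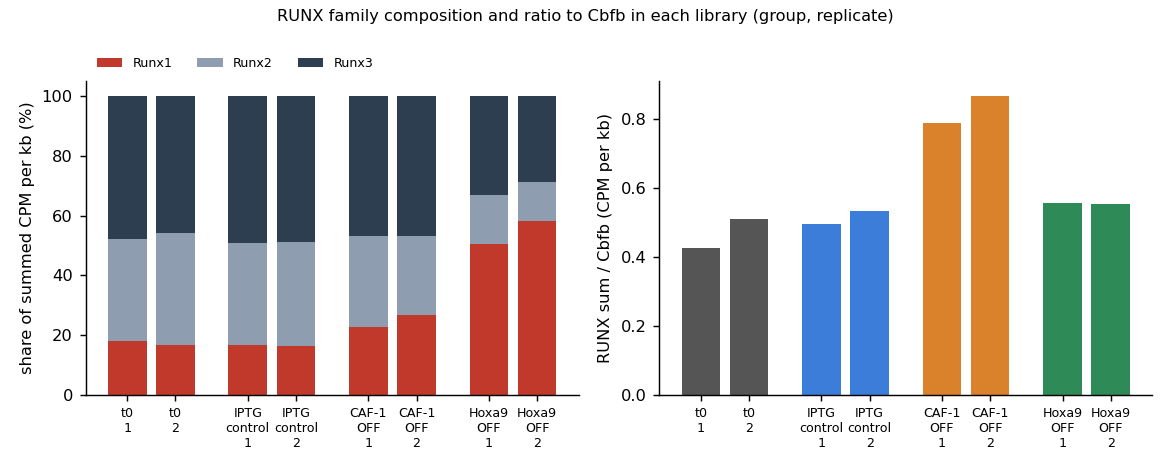
Left, the share of Runx1, Runx2 and Runx3 in their summed CPM per kb (percent) in each of the 8 libraries; right, that sum divided by the CPM per kb of Cbfb. Runx1 takes about 17% in t0, 24.7% on average in CAF-1 OFF and 54.3% in Hoxa9 OFF, and the ratio to Cbfb is highest in CAF-1 OFF at 0.787 and 0.865.

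In 4 of the 4 groups the library with more Runx2 also had more Runx3. The same held for Cbfb and Runx3 in 3 of the 4 groups and for Runx1 and Runx3 in 2. Such agreement was not counted over other gene pairs. Over the 8 libraries the log2 CPM values of Runx2 and Runx3 had a Pearson correlation of 0.94, and Runx1 had a correlation of -0.85 with Runx2. These are descriptions over 8 libraries that fall into 4 groups, and pairs that share a group are not independent.

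The genes whose log2 CPM was most like that of a member over the 8 libraries were sought among the 9839 tested genes whose log2 CPM averaged 2 or more. Closest to Runx1 were Uba7, the activating enzyme of the ubiquitin-like protein ISG15 (r = 0.998), Tgm2, a transglutaminase (r = 0.998), and Xdh, xanthine dehydrogenase (r = 0.997). Mean Tgm2 was 14.1 CPM in t0, 106.9 CPM in CAF-1 OFF and 859.0 CPM in Hoxa9 OFF, so its range was far wider than that of Runx1. Closest to Runx2 were Etaa1 (r = 0.996), Foxp1, a forkhead factor of B cell and monocyte development (r = 0.995), and Rnf219 (r = 0.989); mean Foxp1 was 186.8 CPM in t0, 188.1 CPM in CAF-1 OFF and 99.6 CPM in Hoxa9 OFF. Zfp451 (r = 0.991), Adrbk2 (r = 0.981) and Cep290 (r = 0.978) were closest to Runx3, and Snapc2 (r = 0.988), Rsrc1 (r = 0.986) and Ywhaz (r = 0.982) to Cbfb. With 4 groups of 2, high correlations arise for many genes, and likeness over 8 libraries says nothing of common control.

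Genes known to act with RUNX proteins or to be regulated by them were followed in 7 lists of 88 genes, of which 73 were tested. The other 15, among them Cd4, Cd8a, Il3 and Ibsp, were too low for the test. The lists were chosen with earlier results of these data known. They hold genes that the study reported as raised by CAF-1 loss, such as Pf4, Itga2b and Gfi1b. A share above that of all tested genes may therefore be partly built into the choice, and the shares are descriptions. In CAF-1 OFF against t0, 17 of the 73 rose and 1 fell, or 24.7%, where 14% of all tested genes were called. The median log2 fold change was 0.37, against 0.01 over all tested genes. In Hoxa9 OFF against t0, 27 rose and 14 fell, or 56.2%, where 47.2% of all were called, and the medians were 0.25 and 0.01. The count in CAF-1 OFF fell without either t0 library and without CAF-1 OFF replicate 2. So did the count over all tested genes, which the closing section gives. Against the IPTG treated control 15 rose and 0 fell in CAF-1 OFF, or 20.5%, where 12.8% of all tested genes were called. That count fell when any library of CAF-1 OFF or of the IPTG treated control was left out. The count over all tested genes also fell without CAF-1 OFF replicate 2 and without either IPTG treated control library. In the IPTG treated control against t0 no listed gene was called by edgeR.

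Of 15 corepressors and ETO family genes tested, 1 rose and 0 fell in CAF-1 OFF, or 6.67%, where 14% of all tested genes were called, and their median log2 fold change was -0.10. The riser was Cbfa2t3, the paralog of Runx1t1 that works with erythroid and megakaryocytic factors, at 48.8 and 46.9 CPM in t0 and 74.0 and 72.7 CPM in CAF-1 OFF (log2 fold change 0.61, FDR = 0.0282). Against the IPTG treated control its log2 fold change of 0.56 (FDR = 0.0419) missed the fold threshold. In Hoxa9 OFF 2 rose and 3 fell, or 33.3% against 47.2% of all. The Groucho corepressors, which bind the C terminus of RUNX proteins, went opposite ways: Tle3 rose from 44.6 and 45.4 CPM to 215.0 and 155.7 CPM (log2 fold change 2.04, FDR = 3.55e-05), while Tle1 was at 22.2 and 18.3 CPM in t0 and at 4.78 and 3.08 CPM in Hoxa9 OFF (-2.37, FDR = 0.000206). The histone deacetylase Hdac2 fell by 1.12 on the log2 scale (FDR = 5.44e-05).

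Among coactivators and enzymes that modify RUNX proteins, 1 of 15 rose and 1 fell in CAF-1 OFF, or 13.3% against 14% of all tested genes called, with a median of 0.17. Hipk2, a kinase of RUNX1, rose from 29.1 and 31.02 CPM to 60.3 and 72.9 CPM (log2 fold change 1.15, FDR = 0.00543). Prmt1, a methyltransferase of RUNX1, was at 462.3 and 403.9 CPM in t0 and dropped to 294.9 and 269.9 CPM in CAF-1 OFF (-0.62, FDR = 0.0114). Against the IPTG treated control its log2 fold change of -0.57 (FDR = 0.0147) missed the fold threshold. In Hoxa9 OFF, 4 rose and 4 fell, or 53.3% against 47.2% of all, and Prmt1 was lower still at 112.0 and 107.9 CPM (-1.98, FDR = 1.66e-05). Carm1, another arginine methyltransferase, also fell there (-1.51, FDR = 8.88e-05).

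The transcription factors that bind beside RUNX1 on haematopoietic genes had 4 of 17 higher and 0 lower in CAF-1 OFF, or 23.5% against 14% of all tested genes called, with a median of 0.33. Gfi1b, the erythroid and megakaryocytic repressor, rose from 0.757 and 0.385 CPM to 18.1 and 35.2 CPM (log2 fold change 5.53, FDR = 0.00324). Erg, an ETS factor of stem cells and megakaryocytes, rose from 61.4 and 73.5 CPM to 141.7 and 149.0 CPM (1.11, FDR = 0.0159). Ets1 rose as well (2.91, FDR = 0.0421), but its CAF-1 OFF libraries differed widely, at 1.79 and 13.1 CPM. In Hoxa9 OFF, 7 rose and 4 fell, or 64.7% against 47.2% of all. Sfpi1, which encodes PU.1, the master factor of macrophages, rose from 188.9 and 144.6 CPM to 795.6 and 662.1 CPM (2.13, FDR = 6.46e-05). Zfpm1, the GATA1 cofactor FOG1 (-2.26, FDR = 1.67e-05), and Tal1 (-1.99, FDR = 6.6e-05) fell.

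Of the myeloid genes regulated by RUNX1, 3 of 7 rose and 0 fell in CAF-1 OFF, or 42.9% against 14% of all tested genes called, with a median of 1.54. Itgal, the integrin chain CD11a, was at 149.1 and 154.7 CPM in t0 and reached 394.5 and 489.8 CPM in CAF-1 OFF (log2 fold change 1.54, FDR = 0.00654). Csf1r, the receptor for macrophage colony-stimulating factor, had 5.07 and 3.72 CPM in t0, 11.5 and 17.0 CPM in CAF-1 OFF (1.69, FDR = 0.0266) and 465.3 and 853.3 CPM in Hoxa9 OFF (7.23, FDR = 2.02e-05). Elane, neutrophil elastase, rose in CAF-1 OFF (1.61, FDR = 0.0334). In Hoxa9 OFF, 3 of 7 rose and 1 fell, or 57.1% against 47.2% of all, and Cd14, the monocyte receptor for lipopolysaccharide, rose from 11.8 and 5.99 CPM to 90.7 and 202.8 CPM (4.05, FDR = 0.000348). Itgal rose there by less than in CAF-1 OFF (0.94, FDR = 0.0074), and the difference between both conditions was 0.60 (FDR = 0.0469).

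Megakaryocyte genes regulated by RUNX1 had 4 of 7 higher and 0 lower in CAF-1 OFF, or 57.1% against 14% of all tested genes called, with a median of 2.50. Itga2b, the platelet integrin CD41, was at 14.9 and 17.5 CPM in t0 and reached 109.1 and 74.5 CPM in CAF-1 OFF (log2 fold change 2.50, FDR = 0.0019). Pf4, platelet factor 4, rose from 2.67 and 3.04 CPM to 55.7 and 124.4 CPM (4.98, FDR = 0.0192). In Hoxa9 OFF, 3 rose and 1 fell, or 57.1% against 47.2% of all. Itga2b rose to 114.2 and 93.3 CPM (2.68, FDR = 4.44e-05). Gp1ba, a platelet glycoprotein, rose by 1.27 (FDR = 0.0108). Summed over 6 megakaryocyte markers, among them Itga2b and Pf4, the level was 23.9 to 26.1 CPM in t0, 193.3 to 220.2 CPM in CAF-1 OFF and 128.0 to 138.4 CPM in Hoxa9 OFF, with Gp1bb at 0 in all.

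Of 14 lymphoid and cytotoxic genes known as targets of RUNX1 or RUNX3, 7 were tested, and Cd3e, Cd3g and Cd8a, which define T cells, were at 0 in all groups. In CAF-1 OFF 2 of the 7 rose and 0 fell, or 28.6% against 14% of all tested genes called. Prf1, perforin, rose from 0.579 and 0.642 CPM to 9.05 and 17.7 CPM (log2 fold change 4.44, FDR = 0.00506). In Hoxa9 OFF 4 rose and 1 fell, or 71.4% against 47.2% of all. Ebf1, the B cell factor, fell from 88.1 and 106.7 CPM to 1.14 and 1.19 CPM (-6.38, FDR = 1.19e-05) and was the highest of 5 B cell markers in t0. Zbtb7b, the CD4 lineage factor ThPOK whose silencer RUNX proteins bind, rose from 50.3 and 51.7 CPM to 231.7 and 218.0 CPM (2.14, FDR = 1.74e-05), and Il4 had 0 counts in t0 and was at least 10.0-fold higher, against a floor of 3 counts in 1 library (FDR = 0.00216).

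Of 10 genes that RUNX2 controls in bone, 5 were tested and 5 were too low. In CAF-1 OFF, where 10.5% of all tested genes were higher, 2 rose, Mmp13, collagenase 3 (0.668 and 1.20 CPM in t0, 35.5 and 71.8 CPM in CAF-1 OFF, log2 fold change 5.83, FDR = 0.00985), and Col1a1, type I collagen (3.50, FDR = 0.0295), which stayed low at 0.790 and 2.77 CPM and was not called against the IPTG treated control. In Hoxa9 OFF 4 of the 5 rose and 0 fell, where 25.2% of all tested genes were higher. Spp1, osteopontin, was at 21.2 and 21.4 CPM in t0 and at 116.9 and 812.1 CPM in Hoxa9 OFF (4.45, FDR = 0.00225), with the replicates far apart. Vegfa (1.24, FDR = 0.000621) and Mmp13 (4.42, FDR = 0.00465) also rose there, with the Mmp13 replicates at 5.64 and 34.5 CPM. Of the markers that define osteoblasts, Ibsp was at 0 in all libraries and the 5 markers together were between 0.490 and 3.19 CPM in t0 and CAF-1 OFF.

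**Figure D5:**
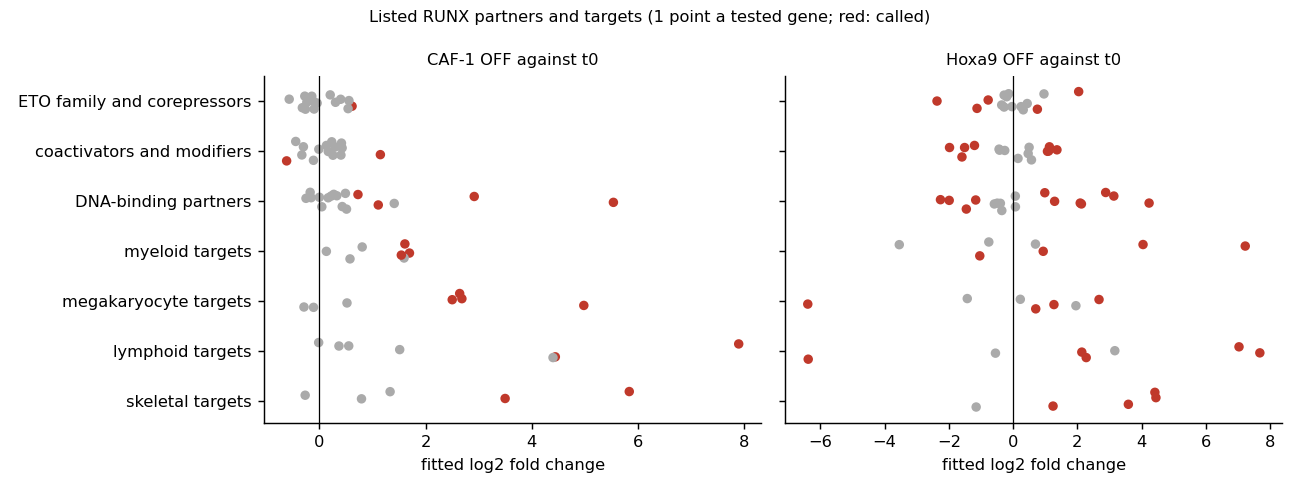
Fitted log2 fold changes against t0 (horizontal axes) of the tested genes in the 7 lists of RUNX partners and targets, 1 point a gene, in CAF-1 OFF (left) and Hoxa9 OFF (right); red points are called. In CAF-1 OFF 17 red points lie right of 0 and 1 left of it; points beyond 6 in size include genes with 0 counts in 1 group, whose fitted values are not bounds.

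Between CAF-1 OFF and Hoxa9 OFF, 25 listed genes were higher in CAF-1 OFF and 17 lower, or 57.5% of the 73, where 43.5% of all tested genes were called. Higher in CAF-1 OFF were Erg by 1.503, Gfi1b by 2.65, Tle1 by 2.91 and Prmt1 by 1.36 on the log2 scale (FDR = 0.00103, 0.00356, 0.000132 and 7.72e-05). Lower in CAF-1 OFF were Csf1r by -5.53, Sfpi1 by -1.70 and Zbtb7b by -1.77 (FDR = 6.04e-05, 0.000236 and 4.89e-05).

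The gene spans on mm9, the build of the authors' alignment, are chr16:92601712-92826311 on the minus strand for Runx1, chr17:44632936-44951746 on the minus strand for Runx2, chr4:134676567-134733905 on the plus strand for Runx3 and chr8:107694574-107741886 on the plus strand for Cbfb. No 50-base window of a member's transcript occurred in another member, and between 98.5% and 100% of such windows were unique among protein-coding genes, so the family is told apart by sequence. Gm10497 overlaps exons of Runx2 on the other strand and had 22 to 68 counts a library. Gm16801 overlaps Runx1 in the same way and had at most 2 counts.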

How the data were processed

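Bulk RNA-seq was measured in 8 libraries of mouse progenitors. The authors aligned reads to mm9 with STAR and counted them per gene with HTSeq-count, and deposited raw counts per gene symbol, one file a library, not normalized. The annotation version and strand setting are not given in the sources used here, so overlapping antisense genes are uncertain. HTSeq summary rows were kept apart from genes.

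Groups and replicate numbers came from the labels. Counts were fitted with edgeR 4.0.16 (R 4.3.3): genes kept by filterByExpr, TMM scaling, and 1 quasi-likelihood fit of all 8 libraries with a mean per group. FDR is the Benjamini-Hochberg adjusted p over 13080 genes, and a call needed FDR under 0.05 and at least 1.5-fold, the study's thresholds. The biological coefficient of variation was 18.9%. CPM used TMM-scaled totals, CPM per kb the union exon length of GENCODE vM1 on mm9, and log2 CPM a prior count of 2. Standard errors were derived from F. The code was tested on simulated data. Replicates differed by more than sampling noise, with a chi-square per degree of freedom of at least 16.6.

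The members and lists were chosen with earlier results of these data known. Named were all members, up to 3 called genes a list with the lowest FDR in CAF-1 OFF and in Hoxa9 OFF against t0, and the 3 genes most correlated with each member. Alternatives were other scalings, filters and thresholds, DESeq2 1.42.0, fits of the compared groups alone, the replicate block and leaving out each library. Promoter sequences are from RefSeq on GRCm38.p6 and were matched by symbol for 4 of the 5 members. Some listed genes are not reported here.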

Additional observations from a re-analysis of the deposited data

How the results depend on the processing

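Precision is limited by 2 libraries a group. Groups share replicate numbers, whose meaning the labels do not give. Deviations of same-numbered libraries correlated among the t0, IPTG treated control and Hoxa9 OFF groups (r from 0.30 to 0.48) but not between CAF-1 OFF and the others (r from -0.04 to 0.08), so the numbers were not taken to pair the samples. With the replicate number as a block, the count of called genes went from 1836 to 2123 in CAF-1 OFF against t0, the members called stayed at 1, 2, 0, 1 and 3 in the 5 comparisons, and no call of a member changed. Leaving out 1 library at a time gave 0 to 2 members called in CAF-1 OFF against t0 and 0 to 2 against the IPTG treated control (1 in each when complete), 2 to 22 and 2 to 18 listed genes (18 and 15), and 157 to 2191 and 199 to 1965 of all genes (1836 and 1670); a group left with 1 library is assumed to vary like the others. Of all genes, 157 were called against t0 without t0 replicate 1, 272 without CAF-1 OFF replicate 2 and 836 without t0 replicate 2; against the IPTG treated control, 199 and 295 were called without its replicate 2 or 1 and 237 without CAF-1 OFF replicate 2. With FDR under 0.01 and 2-fold, members called were 0, 0 and 1 in CAF-1 OFF against t0, the IPTG treated control and Hoxa9 OFF, listed genes 6, 4 and 26, and all genes 364, 282 and 3008, with 3579 in Hoxa9 OFF against t0. With no fold threshold, 2 members, Runx1 and Cbfb, passed in CAF-1 OFF against t0 and 2 against the IPTG treated control. DESeq2 called 5 genes in the IPTG treated control against t0. The log2 fold change changed sign, without a call, for Runx2 in CAF-1 OFF against t0 (0.00804 with library size only; from -0.25 to 0.17 over single libraries left out, 0.14 without CAF-1 OFF replicate 2) and against the IPTG treated control (from -0.29 to 0.11 over single libraries left out). In the IPTG treated control against t0 it changed sign for Runx1 (from -0.028 to 0.12), Runx2 (from -0.14 to 0.24) and Cbfb (from -0.13 to 0.058) over single libraries left out. The cause was not tested. Library-size scaling took the median log2 difference over all genes from 0.01 to -0.18 in Hoxa9 OFF against t0 and from 0.04 to 0.27 in CAF-1 OFF against Hoxa9 OFF, and set Runx1 at 69.7 CPM in CAF-1 OFF and 110.7 CPM in Hoxa9 OFF and Cbfb at 179.1 CPM in t0 and 137.9 CPM in Hoxa9 OFF. With the longest protein-coding transcript as length, the Runx1 share was 14.8% in t0, 21.4% in CAF-1 OFF and 14.2% in the IPTG treated control, the Runx2 share 38.2% in t0 and 36.7% in the IPTG treated control, the Runx3 share 47.7% in CAF-1 OFF, and the RUNX sum over Cbfb 0.599, 1.04, 0.659 and 0.662 in t0, CAF-1 OFF, the control with IPTG and Hoxa9 OFF. With no length scaling, in t0, CAF-1 OFF and the IPTG treated control the shares were 19.7%, 28.4% and 19.1% for Runx1, 46.2%, 37.1% and 44.8% for Runx2 and 34.2%, 34.5% and 36.1% for Runx3, those in Hoxa9 OFF were 18.5% for Runx2 and 21.7% for Runx3, and the sum over Cbfb was 1.10, 1.92 and 1.20, with 1.35 in Hoxa9 OFF.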
